A study of Mus musculus with 4 samples.

Results

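The 10 genes described here encode enzymes of serine, folate-linked one-carbon, asparagine and proline synthesis, most of which are known as targets of the transcription factor ATF4. They were chosen by name, *Phgdh*, *Psat1*, *Psph*, *Shmt1*, *Shmt2*, *Mthfd2*, *Mthfd1l*, *Asns*, *Aldh18a1* and *Pycr1*, from the 53465 genes of the deposited table, and all 10 were listed there and tested. Expression was measured by Long RNA-seq in cultured mouse female germline stem cells (FGSCs), a cell line derived from the ovary. FGSCs infected with lentivirus carrying a control shRNA (shNC) were compared with FGSCs carrying an shRNA against *Nat10* (shNAT10), the RNA acetyltransferase that writes N4-acetylcytidine, with 2 libraries per group. Both groups had passed through viral infection and drug selection, and which *Nat10* shRNA was used for these libraries and the age of the source animals are not given in the sources used here. The study kept its mice on a C57BL/6J background, which is not tied to the FGSC line by name. The study calls the 2 libraries of a group biological replicates, while the labels number them only and do not say that they came from separate cultures, so the p-values measure the spread between these libraries.

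PHGDH, PSAT1 and PSPH turn a glycolytic intermediate into serine, and the SHMT enzymes split serine into glycine and a carbon unit carried by folate. SHMT2, MTHFD2 and MTHFD1L handle this unit in mitochondria and pass it on as formate, while SHMT1 and MTHFD1 work in the cytosol, where the unit feeds the synthesis of purines and thymidylate. ASNS makes asparagine from aspartate and glutamine, and ALDH18A1 and PYCR1 make proline from glutamate. ATF4 is translated when the kinases of the integrated stress response phosphorylate the initiation factor eIF2, and it switches on many of these enzymes together with amino acid transporters and tRNA synthetases.

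*Nat10* had 7.79 and 5.42 FPKM with shNC and 2.95 and 3.04 FPKM with shNAT10, and fell (log2 change -1.09 ± 0.21 SE, adjusted p = 0.123 by limma), although the call was lost without shNAT10 replicate 1 (-1.07) or shNAT10 replicate 2 (-1.11). The libraries held 11057651 to 14897486 fragments on genes, recovered from the FPKM steps. Of 9 germline stem cell markers, 3 (*Dazl*, *Pou5f1* and *Dppa3*) were listed at 0 in all libraries and *Ddx4* had 2 fragments, both in 1 library. The summed level of that list, 10.03 to 22.8 FPKM with shNC and 27.95 to 34.5 FPKM with shNAT10, came almost wholly from *Ifitm3*. The 5 pan-leukocyte markers summed to 443 and 493 FPKM with shNC and to 363 and 384 FPKM with shNAT10, with 3 of the 5 (*Laptm5*, *Cd53* and *Lcp1*) lower, and the 6 mast cell markers summed to 288 to 302 FPKM with shNC and 302 to 308 FPKM with shNAT10, mostly from *Cpa3*. In the mast cell list *Ms4a2* was higher, *Gata2* was lower and *Tpsb2* was at 0. The 6 fibroblast markers held 44.8 to 60.7 FPKM, with *Col3a1* and *Pdgfra* higher in shNAT10 and *Lum* at 0. The 6 granulosa cell and 6 oocyte markers each summed to less than 1.2 FPKM in every library, with *Foxl2*, *Fshr*, *Zp2*, *Zp3* and *Bmp15* at 0. Each of the 7 marker genes called here lost its call without at least 1 library, and *Laptm5* was -0.64 with all libraries and -0.34 without shNC replicate 1. The defining germline genes named above were thus absent or near 0 in cells labelled as germline stem cells. The part of these marker changes in the results below was not tested, and in bulk RNA fewer cells of a type and less RNA per cell cannot be told apart.

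The promoters of the genes on which the results turn are printed first, because ATF4 acts with C/EBP partners on a short element that can be searched for. The windows run from 250 bases before to 50 bases after the RefSeq start site on GRCm38.p6, on the strand of the gene, and 11 windows matched the 10 genes. Capitals mark the letters TGATGNAA of the C/EBP-ATF element in *Asns* and *Pycr1* and the E-box CACGTG in *Aldh18a1*. The windows of the 7 other genes held neither, among them *Mthfd2*, which fell, and *Shmt1*, which rose and is printed for comparison, while *Asns* was not called. The windows are chr6:7693160-7693459, chr11:120643699-120643998 and chr19:40588414-40588713 for *Asns*, *Pycr1* and *Aldh18a1*, and chr11:60811216-60811515 for *Shmt1*, all on the minus strand.
Asns: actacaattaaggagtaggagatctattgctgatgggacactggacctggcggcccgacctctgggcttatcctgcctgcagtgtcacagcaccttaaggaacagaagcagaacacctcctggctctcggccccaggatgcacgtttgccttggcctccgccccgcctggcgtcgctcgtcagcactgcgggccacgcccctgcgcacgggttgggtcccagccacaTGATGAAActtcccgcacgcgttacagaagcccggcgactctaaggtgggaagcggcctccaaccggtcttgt
Pycr1: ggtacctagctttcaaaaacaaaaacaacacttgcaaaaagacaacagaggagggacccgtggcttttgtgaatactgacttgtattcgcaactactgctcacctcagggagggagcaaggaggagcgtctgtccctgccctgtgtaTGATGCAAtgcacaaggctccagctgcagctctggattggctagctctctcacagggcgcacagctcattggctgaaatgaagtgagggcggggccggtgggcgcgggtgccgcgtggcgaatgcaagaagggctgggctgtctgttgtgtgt
Aldh18a1: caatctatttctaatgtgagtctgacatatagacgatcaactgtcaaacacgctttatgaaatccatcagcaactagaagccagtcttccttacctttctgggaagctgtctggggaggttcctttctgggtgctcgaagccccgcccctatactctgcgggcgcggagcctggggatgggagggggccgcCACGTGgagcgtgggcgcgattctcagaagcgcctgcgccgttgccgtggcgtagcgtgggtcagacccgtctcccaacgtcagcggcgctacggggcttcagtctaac
Shmt1: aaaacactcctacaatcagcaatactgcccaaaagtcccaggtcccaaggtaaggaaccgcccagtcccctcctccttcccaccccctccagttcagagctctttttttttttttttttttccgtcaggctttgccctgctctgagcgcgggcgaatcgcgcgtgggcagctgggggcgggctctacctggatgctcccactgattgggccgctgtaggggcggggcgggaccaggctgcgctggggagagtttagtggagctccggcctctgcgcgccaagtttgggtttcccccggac
The C/EBP-ATF letters, searched on both strands, began 23 bases before the start site in *Asns* (TGATGAAA) and 103 bases before it in *Pycr1* (TGATGCAA). In *Asns* these letters are those of the element through which a lack of amino acids is known to induce this gene. The letters were in 2 of the 10 genes here and in 4.51% of all 27025 genes with a window (3.97% of 32851 windows). The E-box was in 1 of the 10 genes and in 8.09% of all genes (7.15% of windows), and the cyclic AMP response element TGACGTCA was in 0 of the 10 and in 2.03% of all genes (1.79% of windows). These motifs do not overlap one another in the windows printed. RefSeq start sites need not be those used in FGSCs, and a match is a description of letters only.

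*Phgdh* was the most abundant of the 10 in FGSCs. It had 167 and 154 FPKM with shNC and 182 and 187 FPKM with shNAT10, and ranked 149th in mean FPKM among the 12837 protein-coding genes tested. *Phgdh* alone made up 42.1% and 40.5% of the summed FPKM of the 10 genes in shNC and 46.9% and 46.1% in shNAT10. *Psat1* followed with a mean of 56.6 FPKM over the 4 libraries, a level 3.05 times lower. *Shmt2* (mean 38.0 FPKM) and *Asns* (34.2 FPKM) came next, and their ranges over the libraries overlapped. *Mthfd2* (23.6 FPKM), *Psph* (20.7 to 24.8 FPKM over the libraries) and *Aldh18a1* (19.8 FPKM) were likewise not separated in that order by their spread. *Shmt1* (12.5 FPKM), *Mthfd1l* (7.54 FPKM) and *Pycr1* (6.27 FPKM) were the lowest, with overlapping ranges between neighbours, though each of the 4 libraries kept this order. The sum over the 10 genes was 397 and 380 FPKM with shNC and 389 and 406 FPKM with shNAT10, so the groups overlapped in the total.

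**Figure D1:**
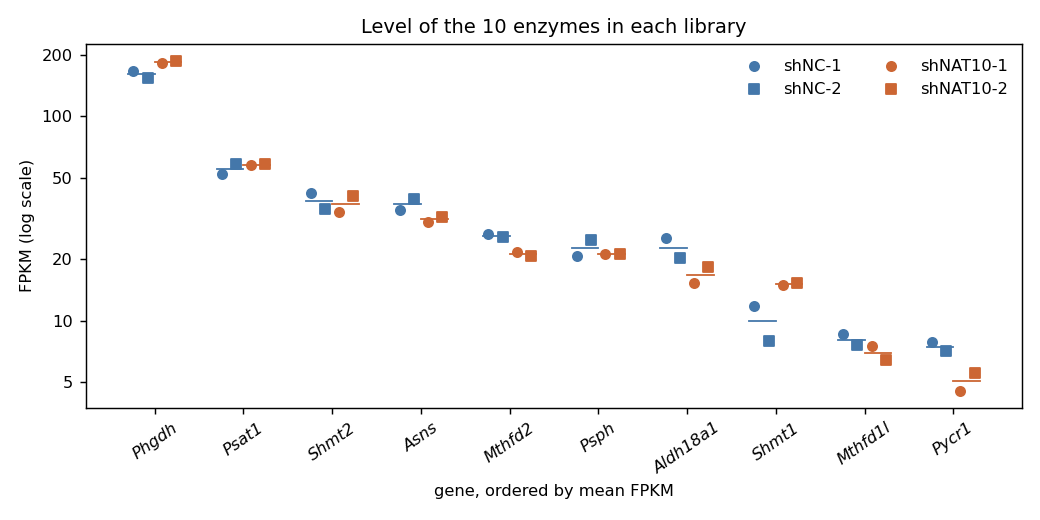
FPKM (log axis) of the 10 enzyme genes in each library, ordered by mean level. Points are single libraries and short lines are group means of 2 libraries. *Phgdh* lies between 154 and 187 FPKM and *Pycr1* between 4.54 and 7.88 FPKM. *Shmt1* and *Phgdh* are higher in both shNAT10 libraries than in both shNC libraries. *Pycr1*, *Aldh18a1*, *Mthfd2*, *Asns* and *Mthfd1l* are lower in both, and 48.0% of all genes are separated in either direction.

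Expression in shNAT10 was compared with shNC by limma on log2(FPKM + 0.1) over the 20116 genes whose FPKM averaged 0.1 or more, and calls needed a change of more than 1.2-fold with p no higher than 0.05 before adjustment. Of the 10 genes, 1 rose and 3 fell, and 6 were not called. Among all genes tested, 16.2% were called, 8.41% higher and 7.83% lower. None (0 of 10) had an adjusted p under 0.05, against 0.437% of all genes, whereas 4 had an unadjusted p under 0.05. The log2 fold changes ran from -0.56 to 0.63 with a median of -0.15, where the median of all genes tested was 0.01. The groups did not overlap for 7 of the 10 genes, 5 with lower and 2 with higher values in shNAT10, and they did not overlap for 48.0% of all genes, 24.1% with lower and 23.9% with higher values.

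The serine synthesis genes were not called. *Phgdh*, the entry enzyme, was above both shNC libraries in both shNAT10 libraries, with a log2 fold change of 0.20 (95% interval -0.03 to 0.44, adjusted p = 0.351 by limma). *Psat1*, the aminotransferase of the pathway, had 51.9 and 58.2 FPKM with shNC and 57.5 and 58.6 FPKM with shNAT10. The log2 change was 0.08 (95% interval -0.17 to 0.32) and the groups overlapped. *Psph*, the phosphatase of the last step, had 20.7 and 24.8 FPKM with shNC and 21.3 and 21.2 FPKM with shNAT10. The shNAT10 values lay between those of the shNC libraries, with a log2 fold change of -0.09 (95% interval -0.40 to 0.21). *Psph* shares up to 452 nt of exon with *Cct6a* on the opposite strand, which had 106 to 121 FPKM, and its level is uncertain because use of strand in counting is not given. A log2 change above 0.44 or below -0.40 lay outside the intervals of all 3 genes.

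*Shmt1*, the cytosolic serine hydroxymethyltransferase, showed the largest rise of the 10 and lies at chr11:60788104-60811718 on the minus strand (GRCm38, GENCODE M21). It had 11.9 and 8.005 FPKM with shNC and 15.0 and 15.2 FPKM with shNAT10. Both shNAT10 libraries lay above both shNC libraries, which themselves differed by 0.56 on the log2 scale. The log2 fold change was 0.63 (SE 0.21, adjusted p = 0.253 by limma). Leaving out shNC replicate 1 gave 0.91, leaving out shNC replicate 2 gave 0.35, and the call was lost without shNAT10 replicate 1 (0.64) or shNAT10 replicate 2 (0.62). On the recovered fragments, 369 to 906 per library, limma-voom gave an adjusted p of 0.00535, in a range from 0.00535 to 0.632 over all alternatives. *Shmt1* shares up to 184 nt of exon with *Smcr8* on the opposite strand, which had 4.55 to 6.21 FPKM.

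*Shmt2*, the mitochondrial counterpart, had 41.9 and 35.1 FPKM with shNC and 34.0 and 40.8 FPKM with shNAT10. The groups overlapped and the log2 fold change was -0.04 (95% interval -0.42 to 0.34). Its sign turned with the library left out, from -0.17 to 0.09. *Mthfd2*, the mitochondrial dehydrogenase and cyclohydrolase at chr6:83305691-83325908 on the minus strand, fell from 26.5 and 25.6 to 21.6 and 20.7 FPKM. The 2 libraries of each group differed by less than 0.1 on the log2 scale, and the log2 fold change was -0.30 (SE 0.08, adjusted p = 0.213 by limma), with the call lost without shNAT10 replicate 2 (-0.27). *Mthfd1l*, which releases formate in mitochondria, had 8.60 and 7.58 FPKM with shNC and 7.56 and 6.41 FPKM with shNAT10. The groups did not overlap, by the narrow margin of 7.58 against 7.56 FPKM, and the log2 fold change of -0.21 (95% interval -0.58 to 0.16) was not called. It was -0.12 without shNC replicate 1, -0.33 without shNAT10 replicate 1 and -0.09 without shNAT10 replicate 2.

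*Asns* had 34.8 and 39.5 FPKM with shNC and 30.3 and 32.3 FPKM with shNAT10. Both shNAT10 libraries were below both shNC libraries, but the log2 fold change of -0.24 (SE 0.10, adjusted p = 0.337 by limma) did not pass the test. It passed in 1 of 14 alternatives, without shNC replicate 1 (-0.33), and was -0.15 without shNC replicate 2.

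The 2 proline synthesis genes fell. *Aldh18a1*, which makes the precursor of proline and ornithine from glutamate and lies at chr19:40550257-40588463 on the minus strand, had 25.4 and 20.2 FPKM with shNC and 15.2 and 18.3 FPKM with shNAT10. The groups did not overlap, but the nearest libraries, 20.2 and 18.3 FPKM, were closer to each other than the 2 libraries within either group. The log2 fold change was -0.44 (SE 0.16, adjusted p = 0.290 by limma). The call was lost without any 1 of the 4 libraries, with values of -0.27 without shNC replicate 1, -0.61 without shNC replicate 2, -0.31 without shNAT10 replicate 1 and -0.57 without shNAT10 replicate 2. It was also lost with the replicate number as a block, without a filter on low values, with equal protein-coding totals, with quantile normalization and without the trend in limma, in all in 9 of 14 alternatives. *Pycr1*, the mitochondrial reductase of the last step at chr11:120635712-120643769 on the minus strand, had 7.88 and 7.09 FPKM with shNC and 4.54 and 5.59 FPKM with shNAT10. Its log2 fold change of -0.56 (SE 0.15, adjusted p = 0.205 by limma) was the largest fall among the 10. The value was -0.71 without shNAT10 replicate 2, and the call was lost without shNC replicate 1 (-0.49), shNC replicate 2 (-0.64) or shNAT10 replicate 1 (-0.41). *Pycr1* rested on 224 to 364 fragments per library, for a counting error of up to 6.68%. On the recovered fragments limma-voom called the same 4 genes, where it called 19.4% of all genes. Its adjusted p was 0.0270 for *Pycr1*, in a range from 0.0270 to 0.524 over all alternatives, 0.0324 for *Aldh18a1*, in a range from 0.0324 to 0.682, and 0.122 for *Mthfd2*, in a range from 0.122 to 0.486.

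**Figure D2:**
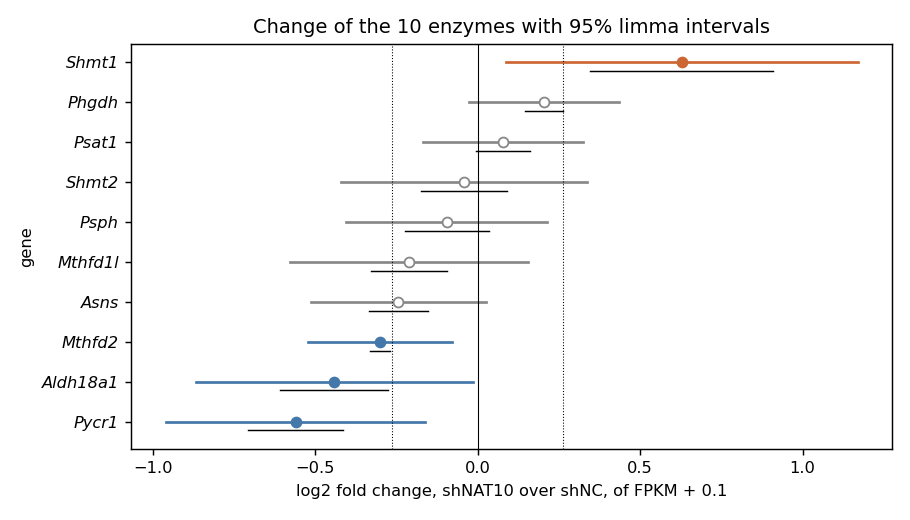
Log2 fold change of the 10 genes in shNAT10 over shNC on log2(FPKM + 0.1). Points are limma estimates from 2 libraries per group, filled where the gene was called, coloured lines are 95% limma intervals, black lines are the range over fits that leave out 1 library, and dotted lines mark a fold change of 1.2. *Shmt1* (0.63) is the only filled point to the right of 0, and *Pycr1* (-0.56), *Aldh18a1* (-0.44) and *Mthfd2* (-0.30) are filled to the left.

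Enzymes that perform related steps were compared as ratios of FPKM + 0.1 within a library, in which a common scaling of the library nearly cancels. On this scale *Shmt2* exceeded *Shmt1* by 3.51 and 4.34 times in shNC and by 2.25 and 2.67 times in shNAT10. The log2 ratio thus went from 1.97 ± 0.22 to 1.30 ± 0.17 (SD, n = 2 per group, exact permutation p = 0.3333). *Mthfd1*, the cytosolic enzyme with the same dehydrogenase and cyclohydrolase steps as MTHFD2, rose from 8.97 and 9.52 to 10.8 and 12.7 FPKM (log2 fold change 0.34, adjusted p = 0.282 by limma), with the call lost without shNC replicate 1 (0.30), shNC replicate 2 (0.38) or shNAT10 replicate 2 (0.22). The log2 ratio of *Mthfd2* over *Mthfd1* went from 1.48 ± 0.09 to 0.85 ± 0.20, and that of *Mthfd1l* over *Mthfd1* from -0.19 ± 0.19 to -0.74 ± 0.33 (SD, n = 2 per group, exact permutation p = 0.3333 each). The last difference, -0.55, was -0.32 without shNAT10 replicate 2. Both shNAT10 libraries were below both shNC libraries in each of these 3 ratios of a mitochondrial over a cytosolic enzyme, of which the last 2 share the denominator *Mthfd1*. Of all single genes, 24.1% were separated in that direction, and the share among ratios of 2 genes was not computed. *Mthfd2l*, a second mitochondrial dehydrogenase, had 2.22 to 2.92 FPKM with shNC and 2.65 to 3.18 FPKM with shNAT10 and was not called, and its sign turned without shNC replicate 2.

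For proline, *Pycrl*, the cytosolic reductase, stood at 29.95 to 36.9 FPKM with shNC and 33.6 to 33.9 FPKM with shNAT10 and was not called, and its sign turned without shNC replicate 1. *Oat*, which links ornithine with the proline precursor, had 75.1 and 85.2 FPKM with shNC and 71.8 and 76.1 FPKM with shNAT10. The ratio of *Aldh18a1* over *Oat* overlapped between the groups (difference -0.33, exact permutation p = 0.6667, n = 2 per group), and the difference was -0.07 without shNC replicate 1 and -0.59 without shNC replicate 2. Adjusted over the 5 ratios computed, the exact permutation p was 0.417 for each of the 3 ratios of a mitochondrial over a cytosolic enzyme and 0.667 for *Aldh18a1* over *Oat*, and 2 libraries against 2 cannot give a two-sided exact p under 0.3333.

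**Figure D3:**
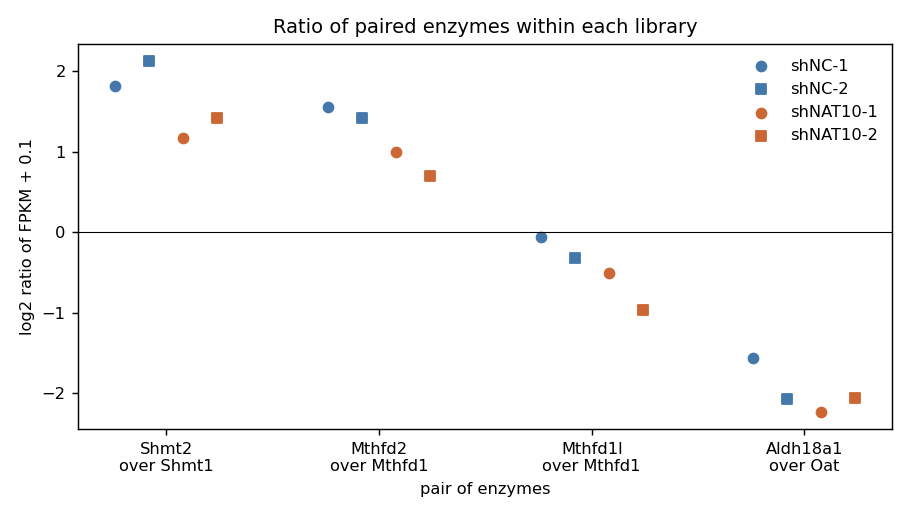
Log2 ratio of FPKM + 0.1 of paired enzymes within each library. Each point is 1 library. Both shNAT10 points lie below both shNC points for *Shmt2* over *Shmt1*, *Mthfd2* over *Mthfd1* and *Mthfd1l* over *Mthfd1*, and the groups overlap for *Aldh18a1* over *Oat*.

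The neighbouring genes of folate and methionine metabolism moved in both directions, with 4 higher and 2 lower of the 16 tested. *Tyms*, thymidylate synthase, rose from 12.3 and 11.7 to 19.3 and 18.8 FPKM (log2 change 0.66 ± 0.09 SE, adjusted p = 0.0807 by limma). *Aldh1l2*, the mitochondrial formyltetrahydrofolate dehydrogenase, fell from 6.34 and 6.25 to 2.14 and 2.48 FPKM (log2 change -1.41 ± 0.14 SE, adjusted p = 0.0507 by limma). Both changes were called in each of the 14 alternatives. *Mat2a* (0.41), which makes S-adenosylmethionine, and *Mthfd1* were among the other rises, and *Mtrr* (-0.52) was the other fall. The call of *Mat2a* was lost without shNC replicate 2 (0.26), shNAT10 replicate 1 (0.40) or shNAT10 replicate 2 (0.42). That of *Mtrr* was lost without shNC replicate 1 (-0.43), shNAT10 replicate 1 (-0.44) or shNAT10 replicate 2 (-0.59).

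Of the genes that use serine and glycine, 1 of 10 tested was higher and 1 lower. *Cth*, the cystathionine lyase that yields cysteine, fell from 3.17 and 3.05 to 0.771 and 1.45 FPKM (log2 fold change -1.47, adjusted p = 0.147 by limma), with the call lost without shNC replicate 1 (-1.44) or shNC replicate 2 (-1.49). *Gcsh*, a part of the glycine cleavage system, rose (0.29), with the call lost without shNC replicate 1 (0.30), shNC replicate 2 (0.28) or shNAT10 replicate 2 (0.19). Among 7 genes that supply glutamate and aspartate, 2 were lower and 1 was higher, and the falls were in the aminotransferases *Got1* (-0.81) and *Gpt2* (-0.48). The call of *Got1* was lost without shNAT10 replicate 1 (-0.82) or shNAT10 replicate 2 (-0.81). Of the 7 other proline and ornithine genes, limma called 0 and limma-voom called 0, and 0 had an unadjusted p under 0.05 by either.

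*Atf4* itself fell from 221 and 201 to 144 and 130 FPKM (log2 change -0.62 ± 0.10 SE, adjusted p = 0.103 by limma). Of the 12 genes listed as ATF4 and its regulators, which hold stress factors such as *Ddit3* beside the eIF2 kinases, 6 were lower and 1 was higher. *Ddit3*, the stress factor CHOP, fell from 39.5 and 48.4 to 16.9 and 17.6 FPKM (log2 change -1.34 ± 0.13 SE, adjusted p = 0.0489 by limma). *Atf3* (-1.11), *Ppp1r15a* (-1.09), *Nupr1* (-0.86) and *Cebpb* (-0.31) were the other falls, of which that of *Cebpb* was lost without shNC replicate 1 (-0.23), shNAT10 replicate 1 (-0.31) or shNAT10 replicate 2 (-0.30). *Eif2ak2*, the kinase PKR, which phosphorylates eIF2 and is also induced by interferon, rose from 5.31 and 4.84 to 10.4 and 9.96 FPKM (0.99). The other eIF2 kinases of the list, *Eif2ak1*, *Eif2ak3* and *Eif2ak4*, were not called.

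Of the 19 other ATF4 target genes tested, 10 were lower and 0 higher, with a median log2 fold change of -0.37. *Chac1*, which degrades glutathione, fell from 26.7 and 26.6 to 14.8 and 13.8 FPKM (-0.89, adjusted p = 0.0507 by limma). *Trib3*, a pseudokinase that holds ATF4 in check, fell from 95.3 and 99.7 to 68.0 and 76.9 FPKM (-0.43), with the call lost without shNC replicate 1 (-0.46) or shNC replicate 2 (-0.40). *Sesn2*, a sensor of leucine, fell from 8.01 and 6.57 to 4.91 and 5.67 FPKM (-0.45), and its call was lost without any 1 of the libraries (-0.59 to -0.31). The remaining falls, in *Ddit4*, *Stc2*, *Slc3a2*, *Slc7a1*, *Xpot*, *Nars* and *Wars*, ran from -0.67 for *Slc3a2*, an amino acid transporter subunit, to -0.27 for *Nars*, the asparaginyl-tRNA synthetase. These calls were lost without either shNAT10 library for *Ddit4*, *Stc2*, *Slc3a2*, *Xpot* and *Nars*, without shNC replicate 2 for *Nars*, without shNC replicate 1 for *Slc7a1* and *Wars*, without shNAT10 replicate 2 for *Slc7a1* and without shNAT10 replicate 1 for *Wars*. Without shNC replicate 1 the values were -0.42 for *Slc3a2* and -0.29 for *Xpot*. The 10 biosynthetic enzymes had 3 lower and 1 higher and a median of -0.15, a difference between the lists that was not tested. Over the 6 lists around the enzymes, 7 of the 71 genes tested were higher and 21 lower, and 11 or 12 were lower without shNAT10 replicate 1 or 2, where 2007 or 2186 genes were called in place of 3267 over the whole table.

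**Figure D4:**
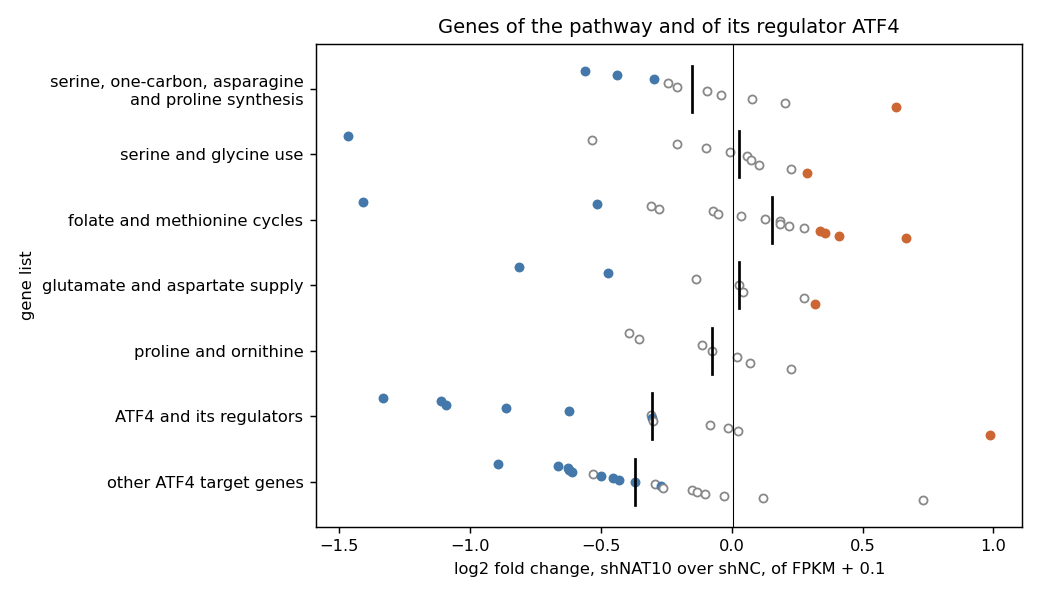
Log2 fold change in shNAT10 over shNC for each tested gene of the 10 enzymes and of 6 lists around them. Each point is a gene, filled where called, thick lines are list medians and the thin line is the median of all genes tested. The median is -0.15 for the 10 enzymes, 0.15 for the folate and methionine genes and -0.37 for the other ATF4 targets. It is -0.31 for the list of ATF4 and its regulators, which also holds stress factors.

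The 4-library profile of the 10 genes, averaged after centring each gene on its own mean in log2, was nearly flat, with 0.10 and -0.00307 in shNC and -0.08 and -0.01 in shNAT10. Among the 12128 other genes averaging 1 FPKM or more, *Nfyb*, *Pcf11*, *Rsrc2* and *Bcl2l1* were among the 5 at the smallest Euclidean distance from it (0.01 to 0.02 in log2). The 10 genes themselves lay farther from their own average, from 0.18 for *Shmt2* to 0.80 for *Shmt1*, so the average describes none of them closely. The likeness is over 4 libraries and is given as a description.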

How the data were processed

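RNA of shNC and shNAT10 FGSCs, 2 libraries per group, had been sequenced as Long RNA-seq. Per the labels, the authors trimmed reads with cutadapt, aligned them with HISAT2 to mm10 and deposited FPKM, fragments scaled to exon length and to sequencing depth; the counter, its use of strand and all versions are not given in the sources used here. The labels and the methods differ on whether poly(A) RNA was selected or ribosomal RNA removed. The deposited FPKM of 53465 genes were used, and 0 columns of unmapped samples were left out. A second deposited table, with the same FPKM for a part of the genes and the authors' fold changes and p-values, was not used.

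Genes averaging 0.1 FPKM or more (20116) were tested with limma 3.58.1 (R 4.3.3; empirical Bayes with trend, two-sided) on log2(FPKM + 0.1), so fold changes of low genes are understated, with Benjamini-Hochberg adjustment over all of them. Calls needed a change of more than 1.2-fold with p no higher than 0.05 before adjustment. The script was tested on simulated data. FPKM multiplied by GENCODE M21 exon length fell on whole multiples (within 0.02) for 96.0% to 96.6% of low values, which gave fragments for limma-voom. Intervals of counts cover counting error only. Ratios were compared by an exact permutation test (scipy 1.17.1). Promoters are from RefSeq (GRCm38.p6).

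The genes and lists were chosen with earlier results of these data known, so their counts are no independent evidence of a direction. The text names all 10 members, *Nat10*, the isoenzymes *Mthfd1*, *Mthfd2l*, *Pycrl* and *Oat*, 5 genes of the ATF4 pathway (*Atf4*, *Ddit3*, *Trib3*, *Chac1* and *Sesn2*), the most alike profiles and called genes of the lists, and a few genes under this rule are not reported here. The kinase genes named as not called were picked after their values were seen.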

Additional observations from a re-analysis of the deposited data

How the results depend on the processing

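Of the 140 comparisons of the 10 genes with 14 alternatives, 118 kept their direction and their side of the call, 17 lost the call, 1 gained it and 4 turned sign. The 3 falls became 1 without the trend in limma and 2 without a filter, with equal protein-coding totals or with quantile normalization. The 1 rise became 0 without the trend. Each of the called genes lost its call without at least 1 library. With a library left out, *Mthfd2* ranged from -0.33 to -0.27, *Aldh18a1* from -0.61 to -0.27, *Pycr1* from -0.71 to -0.41 and *Shmt1* from 0.35 to 0.91. The 21 falls in the lists ranged from 11 to 21 and the 7 rises from 3 to 8 with a library left out, and the rises were 2 without the trend. With a library left out, *Psat1* ranged from -0.0035 to 0.16, *Psph* from -0.22 to 0.034, *Shmt2* from -0.17 to 0.091, *Mthfd2l* from -0.0086 to 0.37 and *Pycrl* from -0.13 to 0.17. No ratio of paired enzymes changed sign in the alternatives run, but with a library left out *Aldh18a1* over *Oat* ranged from -0.59 to -0.07 and *Mthfd1l* over *Mthfd1* from -0.78 to -0.32, and the median of the 10 genes stayed between -0.17 and -0.13. Fits with a library left out have fewer residual degrees of freedom, and the cause of the lost calls was not tested.

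The replicate numbers are shared by the groups, but deviations of same-numbered libraries from their group means had a correlation of 0.00711. With the replicate number as a block, 2 of the 10 genes were lower and 1 higher, *Aldh18a1* losing its call, and 3114 genes were called in place of 3267. The count of genes at an adjusted p under 0.05, 88 by limma, was 0 with a block, without a trend, without a filter, with other pseudocounts or with any library left out, 140 with equal protein-coding totals, 151 with quantile normalization, 296 at a mean FPKM of at least 1 and 1579 by limma-voom. The counting error was at most 6.68% for the 10 genes.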
